A study of Mus musculus with 15 samples.

Results

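The mature miRNAs mmu-miR-423-5p, mmu-miR-674-3p, mmu-miR-1964-3p and mmu-miR-872-3p of mouse Kupffer cells (the prefix mmu is left out below) were followed over 15 small RNA libraries, with every other listed arm of their hairpins. They are 4 of the 248 mature miRNAs listed in both tables of the series, and the other listed arms are 3: miR-423-3p, miR-872-5p and miR-1964-5p. The members were picked because they were among the miRNAs that fell most in ob/ob, so their genotype differences are given below as a description, without a test. Kupffer cells are the resident macrophages of the liver. The cells came from C57BL/6J mice (wt) and from ob/ob mice, which lack functional leptin, overeat and become obese. At 9 weeks of age there were 4 wt and 3 ob/ob libraries, and at 14 weeks of age 4 of each genotype, with no treatment named in the labels. The labels give neither the background strain of the ob/ob mice nor whether each library is 1 animal, so the spread between replicates may be technical. The study's title places the work in obesity-associated insulin resistance and the antioxidant response.

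A miRNA gene is transcribed as a long precursor, which is cut in the nucleus to a hairpin and in the cytoplasm to a short duplex of the 5p and the 3p arm. One arm is usually kept in an Argonaute protein, where its seed, bases 2 to 8, pairs with target mRNAs, while the other arm is degraded sooner. The levels of both arms of a hairpin therefore share transcription and processing but can differ in stability. miR-423 is conserved among mammals and miR-423-5p is often measured in blood plasma, whereas miR-674 and miR-872 were described in rodents.

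The mature sequences are shown because they show that no seed is shared, with bases 2 to 8 in capitals (RefSeq, GRCm38.p6).
mmu-miR-423-5p: uGAGGGGCagagagcgagacuuu
mmu-miR-1964-3p: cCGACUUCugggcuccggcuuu
mmu-miR-674-3p: cACAGCUCccaucucagaacaa
mmu-miR-872-3p: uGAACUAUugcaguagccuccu
The members have 4 distinct seeds. No other listed miRNA with a RefSeq sequence (218 of 248) shares bases 2 to 7 with any of them, so these values are not those of a seed family.

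The hairpins are shown because the arms of 2 of them are compared below, with both mature arms in capitals, 5p first.
Mir423: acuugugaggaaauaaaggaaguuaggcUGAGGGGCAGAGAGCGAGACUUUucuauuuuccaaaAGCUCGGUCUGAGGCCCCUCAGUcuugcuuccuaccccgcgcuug
Mir1964: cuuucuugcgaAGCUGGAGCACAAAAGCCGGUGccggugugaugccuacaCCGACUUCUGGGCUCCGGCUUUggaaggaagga
Mir674: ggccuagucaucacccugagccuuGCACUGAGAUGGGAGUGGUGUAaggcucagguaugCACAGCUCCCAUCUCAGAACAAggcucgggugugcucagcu
Mir872: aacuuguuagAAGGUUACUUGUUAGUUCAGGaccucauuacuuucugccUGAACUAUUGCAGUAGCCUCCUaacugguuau
The hairpins lie on 4 chromosomes. Mir423 (chr11:77078064-77078172, minus strand) is in an intron of Nsrp1, which encodes a nuclear speckle protein, 263 bases from the 5′ end of the annotated gene and on its strand. Mir1964 (chr7:29773294-29773376, plus strand) is in an intron of the zinc finger gene Zfp84, on its strand. Mir872 (chr4:94665157-94665237, plus strand) is in an intron of Ift74, a gene of transport within cilia, on its strand. Mir674 (chr2:117185127-117185226, plus strand) lies between annotated genes, 2848 bases from Spred1, the nearest protein-coding gene. Positions and hosts are those of GENCODE vM21 and RefSeq on GRCm38.

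Values are in RPM (reads per 1000000 reads), taken as such from the deposited tables. Judged by the worth of 1 read in each library, the depth was 9.08 to 39.0 M reads (M, 1000000) in the wt libraries and 25.9 to 98.1 M in the ob/ob libraries. At each age the ob/ob libraries were deeper without overlap (two-sided exact permutation p = 0.0571 at 9 weeks and 0.0286 at 14 weeks, adjusted p = 0.114 and 0.0735 over 18 such tests, of 4 against 3 and 4 against 4 libraries). Each member rested on at least 90 reads in every library, and miR-423-5p on 4563 or more. At 14 weeks wt replicate 1 differed from the rest, with the lowest depth and a sum over all listed miRNAs of 147387 RPM, beside 230785 to 358621 in the other libraries. The ages stand in separate tables whose normalization is not given, so levels at 9 and 14 weeks are set side by side without a test. Fewer cells of a type and less RNA per cell cannot be told apart in such bulk libraries.

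mmu-miR-423-5p was the most abundant member, ranked by mean at place 33 of the 248 listed miRNAs in wt at 9 weeks. In wt at 9 weeks replicates 1 to 4 had 724, 969, 734 and 759 RPM. The ob/ob replicates 1 to 3 of that age had 159, 285 and 135 RPM. No value of the genotypes overlapped, and the ob/ob mean was 24.2% of the wt mean. At 14 weeks the wt replicates had 562, 461, 588 and 577 RPM and the ob/ob replicates 277, 76.2, 116 and 118. Here too all ob/ob libraries lay below all wt libraries, at 26.9% of the wt mean, and ob/ob replicate 1 was the highest of its group. The difference in log2(RPM + 0.5), ob/ob minus wt, was -2.11 ± 0.28 (SE, limma) at 9 weeks and -2.06 ± 0.38 at 14 weeks.

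mmu-miR-1964-3p showed a difference of like size at a far lower level. The wt replicates had 19.7, 18.6, 15.9 and 22.5 RPM at 9 weeks and 12.3, 12.8, 16.5 and 17.7 RPM at 14 weeks. The ob/ob replicates had 3.96, 6.57 and 2.65 RPM at 9 weeks and 6.31, 2.90, 3.75 and 3.36 RPM at 14 weeks. The genotypes did not overlap at either age, and the log2 difference was -2.08 ± 0.30 at 9 weeks and -1.78 ± 0.29 at 14 weeks. Its partner arm miR-1964-5p was at most 0.132 RPM in any library, which stood for at most 7.0 reads, and was not tested, so nearly all listed reads of this hairpin came from the 3p arm.

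mmu-miR-674-3p had 99.3, 61.1, 59.7 and 42.7 RPM in wt and 21.6, 30.7 and 11.1 RPM in ob/ob at 9 weeks. Replicate 1 of wt was the highest, and the lowest wt library was still above the highest ob/ob library. At 14 weeks wt had 50.2, 45.5, 44.2 and 37.8 RPM and ob/ob 22.6, 9.72, 15.1 and 12.9 RPM, again without overlap. The log2 differences were -1.66 ± 0.39 and -1.58 ± 0.29. The arm miR-674-5p was not analysed here.

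mmu-miR-872-3p went with its label at 9 weeks and not at 14 weeks. At 9 weeks wt had 47.8, 67.4, 54.3 and 31.3 RPM and ob/ob 16.3, 17.7 and 6.76 RPM, without overlap, a log2 difference of -1.91 ± 0.39. At 14 weeks wt had 16.0, 59.2, 57.2 and 22.3 RPM and ob/ob 35.1, 42.2, 30.4 and 18.0 RPM. All 4 ob/ob values lay inside the wt range, in which replicates 2 and 3 were high and replicates 1 and 4 low. The log2 difference at 14 weeks was -0.14 ± 0.47 (95% interval -1.19 to 0.91), and its sign turned in lane 1 alone (0.32) and without wt replicate 2 (0.13), wt replicate 3 (0.12) or ob/ob replicate 4 (0.10).

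**Figure D1:**
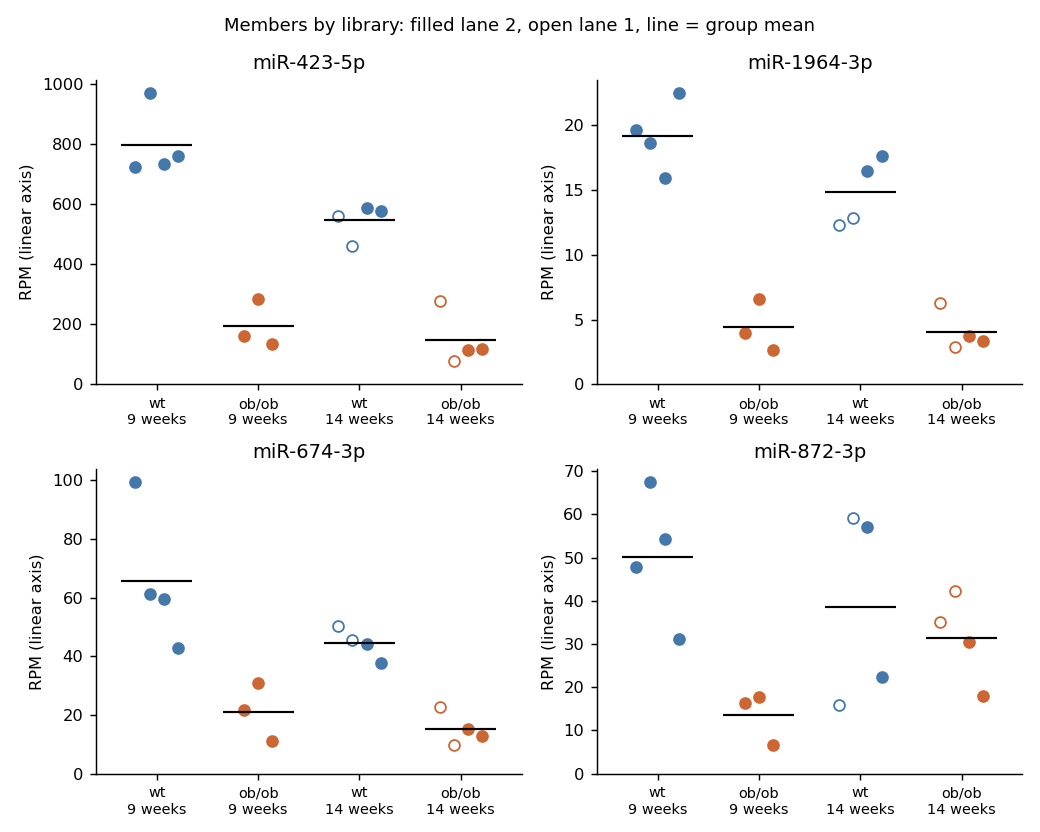
RPM of the 4 members in each library (points; filled, sequencing lane 2; open, lane 1) by group, with the group mean as a line, each panel on its own linear axis from 0. The ob/ob points lie below all wt points at both ages for miR-423-5p, miR-674-3p and miR-1964-3p, and for miR-872-3p at 9 weeks only.

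In all, 4 of 4 members had ob/ob values entirely below the wt values at 9 weeks and 3 of 4 at 14 weeks. Over all miRNAs tested the same held for 41.3% of 179 at 9 weeks and 5.26% of 171 at 14 weeks, and nothing is read from this since the members were chosen on this contrast. In either direction it was 48.6% and 27.5%. The median log2 difference over all miRNAs was -0.51 at 9 weeks and 0.20 at 14 weeks. After each library was divided by its median ratio to the other libraries of its age, which sets that median near 0, the same members lay without overlap, beside 21.8% and 13.5% of all. On that scale miR-423-5p was at 672 ± 96.9 and 229 ± 85.1 (SD) for wt and for ob/ob at 9 weeks, beside 605 ± 252 and 132 ± 73.4 at 14 weeks. By limma's adjusted p, 37.4% of the miRNAs tested at 9 weeks differed as deposited (32.4% lower, 5.03% higher) and 21.5% after rescaling (10.2% lower, 11.3% higher). At 14 weeks 15.2% differed as deposited (3.51% lower, 11.7% higher) and 28% after rescaling (12.5% lower, 15.5% higher).

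Among miRNAs whose higher group averaged 10 RPM or more, the members took places 5 (miR-423-5p), 6 (miR-1964-3p), 7 (miR-872-3p) and 10 (miR-674-3p) of 119 in order of fall at 9 weeks. At 14 weeks miR-423-5p took place 4 of 120, miR-1964-3p place 5, miR-674-3p place 6 and miR-872-3p place 36. The places above them at 9 weeks were held by miR-30a-3p, miR-450a-5p, miR-350-5p and miR-188-5p, and at 14 weeks by miR-30a-3p, miR-126a-3p and miR-350-5p. Of these, miR-30a-3p at both ages, miR-450a-5p and miR-126a-3p were listed at 0 in 1 ob/ob library, and their standard errors were 1.40 to 2.95. At 9 weeks let-7d-3p (-1.72 ± 0.25, place 8) and miR-125a-5p (-1.67) lay between miR-872-3p and miR-674-3p, so the members were not the next in order without a gap. At 14 weeks let-7d-3p (-1.54 ± 0.33, place 7) and miR-125a-5p (-1.53 ± 0.50, place 8) came just after miR-674-3p.

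**Figure D2:**
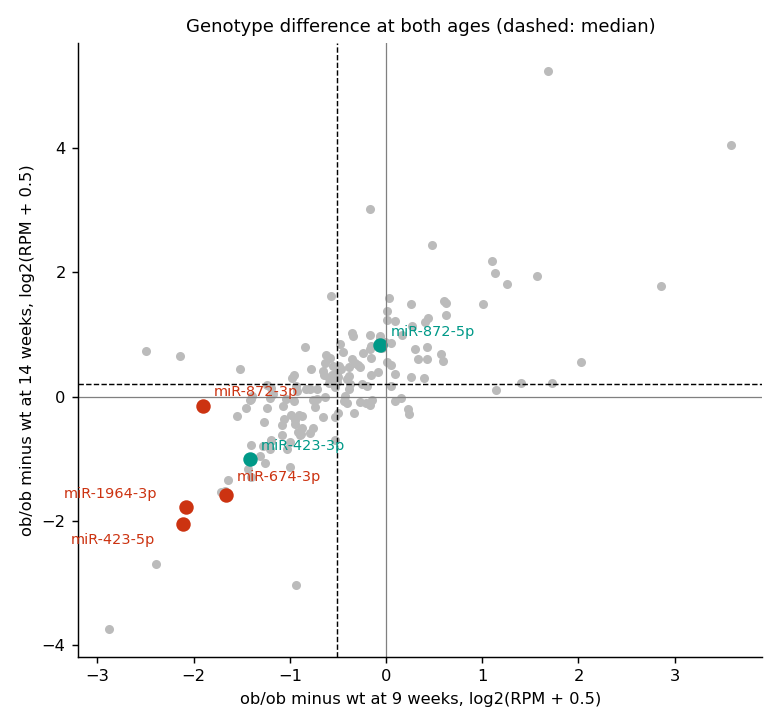
Difference in log2(RPM + 0.5), ob/ob minus wt, at 9 weeks (horizontal) and 14 weeks (vertical) for the 168 miRNAs tested at both ages (grey), the members (red) and their tested partner arms (green), with dashed lines at the medians. miR-423-5p, miR-674-3p and miR-1964-3p lie low on both axes, whereas miR-872-3p lies low at 9 weeks (-1.91) and near 0 at 14 weeks (-0.14).

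The genotype difference at 14 weeks minus that at 9 weeks was 0.05 ± 0.50 for miR-423-5p (95% interval -1.01 to 1.12), 0.30 ± 0.41 for miR-1964-3p (-0.58 to 1.17) and 0.08 ± 0.49 for miR-674-3p (-0.97 to 1.12). For miR-872-3p it was 1.76 ± 0.66 (0.36 to 3.17). After rescaling it was 1.06 ± 0.54 for miR-872-3p, with an interval that includes 0 (-0.10 to 2.21), so the age difference of this member depended on the scaling. The others turned below 0 after rescaling, at -0.67 ± 0.53 for miR-423-5p, -0.38 ± 0.39 for miR-1964-3p and -0.64 ± 0.53 for miR-674-3p, each with an interval that includes 0. None of the 187 miRNAs tested passed the adjusted threshold in the limma fit of the values as deposited, and 48 had an unadjusted p under 0.05.

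In order of level, miR-423-5p was highest in wt at 9 weeks, then in wt at 14 weeks, and lower in ob/ob, with 14 weeks last, and miR-1964-3p and miR-674-3p followed the same order of means. The 2 wt groups did not overlap for miR-423-5p (lowest 724 at 9 weeks, highest 588 at 14 weeks) and overlapped for miR-1964-3p and miR-674-3p. The 2 ob/ob groups overlapped for each of these 3 members. The order differed for miR-872-3p, with ob/ob at 14 weeks (mean 31.4 RPM) above ob/ob at 9 weeks (13.6 RPM). Its ob/ob groups were only just apart (highest 17.7 RPM at 9 weeks, lowest 18.0 RPM at 14 weeks). The share of all miRNAs without overlap between the ages was not counted, and the normalization of each age is not given. Nothing is therefore read from these separations between ages.

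The partner arm of miR-423-5p, miR-423-3p, was also lower in ob/ob. The choice of members did not use its values, but its test is not independent of that choice. miR-423-3p shares the hairpin and the libraries of miR-423-5p and correlated with it (r = 0.95 over all libraries, 0.80 within groups). At 9 weeks miR-423-3p had 566, 546, 549.8 and 559 RPM in wt and 181, 316 and 157 RPM in ob/ob. All ob/ob libraries lay below the narrow wt range, as held for 41.3% of the miRNAs tested. The fall was -1.41 ± 0.25 (limma adjusted p = 0.00538 as deposited and 0.0337 rescaled). Of all miRNAs tested, 32.4% were called lower as deposited and 10.2% rescaled. At 14 weeks wt had 292, 418, 482 and 419 RPM and ob/ob 279.7, 132, 204 and 203 RPM. The groups again did not overlap, as held in this direction for 5.26% of the miRNAs tested. The difference of -1.0 ± 0.31 missed the threshold as deposited (limma adjusted p = 0.0535). It passed after rescaling (-1.22, adjusted p = 0.00760), without wt replicate 1 (adjusted p = 0.0180) and without ob/ob replicate 1 (adjusted p = 0.0273). With a correction for GC content in each library miR-423-3p passed at neither age (log2 difference -0.52 and -0.50, limma adjusted p = 0.124 and 0.117). Over all alternatives its limma adjusted p ran from 0.000807 to 0.124 at 9 weeks and from 0.00760 to 0.725 at 14 weeks, the highest in lane 1 alone.

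The 5p arm of miR-872 did not fall with its 3p arm. miR-872-5p had 85.9, 66.7, 70.6 and 82.5 RPM in wt and 64.1, 77.4 and 76.8 RPM in ob/ob at 9 weeks. These ranges overlapped, with a log2 difference of -0.07 ± 0.18 (95% interval -0.48 to 0.35, limma adjusted p = 0.809). After rescaling the difference at 9 weeks was 0.44 ± 0.17 (95% interval 0.05 to 0.83), which missed the threshold (limma adjusted p = 0.0925). With the GC correction it was 0.26 ± 0.17 (limma adjusted p = 0.293). At 14 weeks wt had 29.0, 70.3, 67.7 and 70.8 RPM and ob/ob 83.7, 109, 113 and 96.3 RPM. All ob/ob libraries were higher there, as were those of 22.2% of the miRNAs tested (7.26% at 9 weeks), at 0.83 ± 0.33, which missed the threshold as deposited (adjusted p = 0.116) and passed after rescaling (0.61 ± 0.18, adjusted p = 0.0343), though not with the GC correction (0.30 ± 0.14, adjusted p = 0.165). Over all alternatives its limma adjusted p ran from 0.0925 to 0.974 at 9 weeks and from 0.0323 to 0.657 at 14 weeks. The genotype effect at 14 weeks minus that at 9 weeks missed the limma threshold for both partner arms, at 0.41 for miR-423-3p (95% interval -0.44 to 1.26, adjusted p = 0.495) and 0.90 for miR-872-5p (0.07 to 1.72, adjusted p = 0.172).

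The ratio of the arms within a library does not depend on how the library was scaled, and it uses the members' own values, so it is described and not tested. For miR-423 the 5p arm exceeded the 3p arm in every wt library and in no ob/ob library. The 5p to 3p ratio was 1.28, 1.78, 1.33 and 1.36 in wt and 0.881, 0.900 and 0.856 in ob/ob at 9 weeks. At 14 weeks it was 1.92, 1.10, 1.22 and 1.38 in wt and 0.992, 0.577, 0.568 and 0.581 in ob/ob. The log2 ratio thus differed by -0.70 at 9 weeks and -1.06 at 14 weeks.

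For miR-872 the 5p arm gained on the 3p arm in ob/ob. Its 5p to 3p ratio was 1.80, 0.989, 1.30 and 2.64 in wt and 3.93, 4.38 and 11.4 in ob/ob at 9 weeks, without overlap. At 14 weeks it was 1.81, 1.19, 1.18 and 3.18 in wt and 2.38, 2.58, 3.71 and 5.35 in ob/ob, where wt replicate 4 lay inside the ob/ob range. Among 22 hairpins with both arms at 1 RPM or more in every library of 9 weeks, miR-872 had the largest change of the ratio (log2 1.88) and miR-423 was at place 9. Among 17 such hairpins at 14 weeks miR-423 was at place 2 and miR-872 at place 3 (0.98). Ratios without overlap were common, however, in 50% of those hairpins at 9 weeks and 41.2% at 14 weeks.

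**Figure D3:**
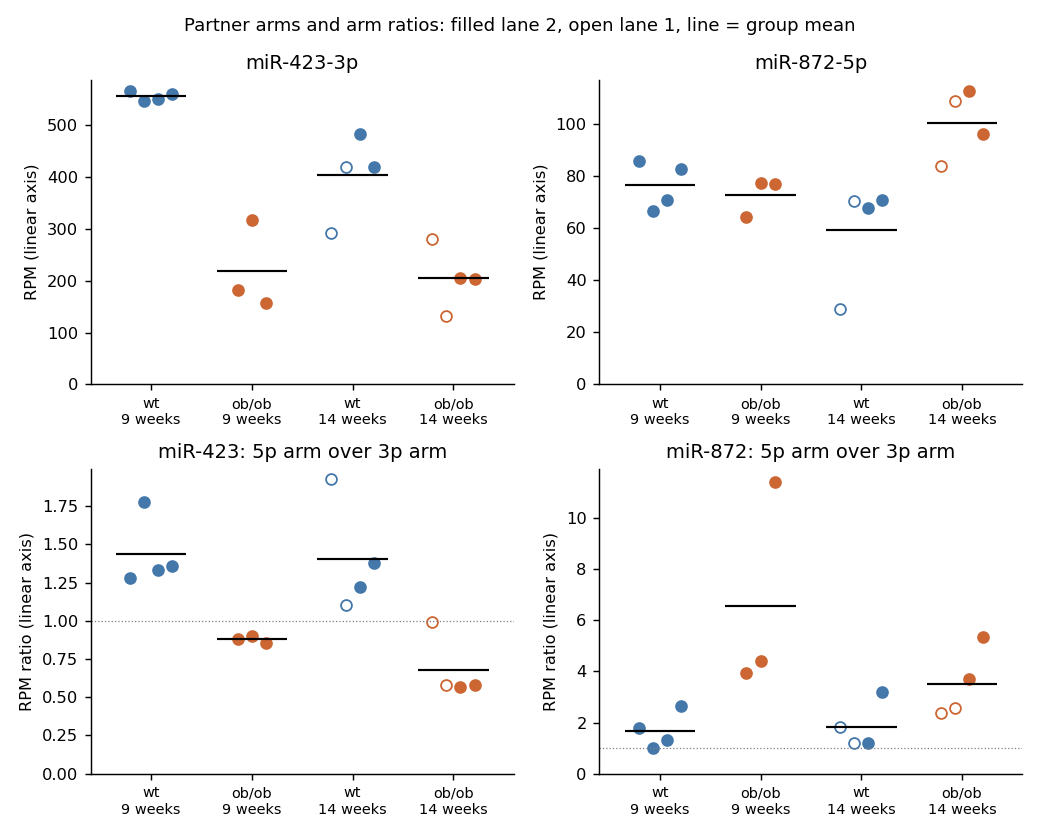
Upper panels, RPM of the partner arms miR-423-3p and miR-872-5p in each library; lower panels, ratio of the 5p to the 3p arm of miR-423 and miR-872, with a dotted line at 1 (points filled for lane 2, open for lane 1, line at the group mean, linear axes from 0). miR-423-3p is lower in ob/ob, miR-872-5p is not, and the miR-423 ratio is above 1 in the wt libraries and below 1 in the ob/ob libraries.

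Within groups, miR-423-5p, miR-674-3p and miR-1964-3p varied together between libraries, and miR-872-3p correlated less with them. After the mean of each of the 4 groups was subtracted from log2(RPM + 0.5), miR-423-5p correlated over the 15 libraries with miR-1964-3p at r = 0.84 and with miR-674-3p at 0.67, but with miR-872-3p at 0.14. Of the ob/ob libraries, replicate 2 at 9 weeks and replicate 1 at 14 weeks were the highest of their groups for each of these 3 members. Replicate 3 at 9 weeks and replicate 2 at 14 weeks were the lowest. For miR-872-3p the ob/ob replicates 2 and 3 were likewise the highest and the lowest at 9 weeks. At 14 weeks its highest ob/ob library was replicate 2 and its lowest replicate 4. These correlations share libraries and their scaling, and are a description.

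The nearest companions of these 3 members differed from those of miR-872-3p. The companions also correlated with each other, as let-7d-3p did with miR-511-3p within groups (0.68). Among 109 other miRNAs with a mean of at least 10 RPM and no 0, let-7d-3p, the 3p arm of a let-7 hairpin, was most like miR-423-5p and miR-1964-3p, over all 15 libraries (r = 0.98 for each) and within groups (0.86 and 0.89). Over all libraries miR-1964-3p and miR-671-3p came next for miR-423-5p (0.97 and 0.96), and miR-423-5p and miR-423-3p for miR-1964-3p (0.97 and 0.96). Correlations over all libraries include the genotype difference by which the members were chosen, so nothing is read from their height. miR-671-3p was most like miR-674-3p (0.97, and 0.85 within groups), followed over all libraries by miR-423-5p and miR-1964-3p (0.94 and 0.93). Within groups those 2 were at 0.67 and 0.62. Within groups miR-423-3p was also close to miR-423-5p (0.80), miR-222-3p and miR-423-3p to miR-1964-3p (0.86 each), and miR-132-3p and miR-378a-5p to miR-674-3p (0.77 and 0.72).

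For miR-872-3p the companions were others: miR-151-5p, miR-511-3p and miR-149-5p over all libraries (r = 0.93, 0.91 and 0.91) and miR-30b-5p, miR-188-5p and miR-151-5p within groups (0.91, 0.90 and 0.88). miR-511-3p is a macrophage miRNA whose hairpin lies within the mannose receptor gene. Like miR-872-3p, it was lower in ob/ob at 9 weeks (159 ± 11.8 and 77.9 ± 23.9 RPM, SD) and overlapped at 14 weeks (77.3 to 183 RPM in wt and 101 to 145 in ob/ob). miR-151-5p went from 1545 ± 205 RPM in wt to 649.7 ± 337.6 in ob/ob at 9 weeks, beside 1116 ± 462 and 1018 ± 233 at 14 weeks. Both were named for their correlation with miR-872-3p over all libraries, which includes the group differences, so nothing is read from these patterns. At 9 weeks 41.3% of all miRNAs tested had ob/ob values entirely below the wt values.

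**Figure D4:**
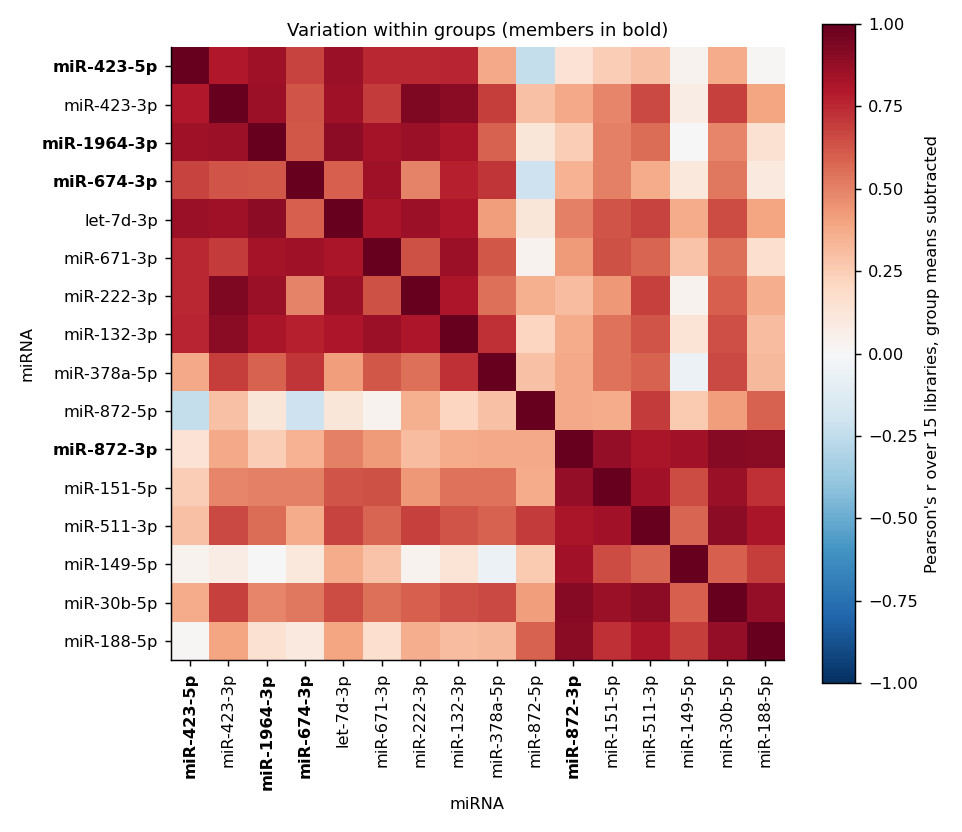
Pearson's r between the members (bold), their partner arms and their nearest companions over the 15 libraries after group means were subtracted from log2(RPM + 0.5); red is positive and blue negative. miR-423-5p, miR-674-3p and miR-1964-3p correlate with let-7d-3p (0.60 to 0.89) and miR-671-3p (0.75 to 0.85). miR-872-3p correlates with miR-151-5p, miR-511-3p, miR-30b-5p and miR-188-5p (0.82 to 0.91). These sets are not separate, since let-7d-3p also correlates with miR-511-3p (0.68) and miR-30b-5p (0.66).

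The members share neither arm nor composition as a group. miR-1964-3p has 63.6% G and C, and 10 of the 218 listed miRNAs with a sequence have more. miR-423-5p has 56.5%, miR-674-3p 50% and miR-872-3p 45.5%, beside a median of 47.6% over those 218. Across miRNAs the genotype difference ran lower with more G and C, with Pearson's r of -0.21 over 160 miRNAs at 9 weeks and -0.34 over 153 at 14 weeks, where the miRNAs are not independent. The 18 tested miRNAs with at least 60% G and C had a median log2 difference of -0.88 at 9 weeks, beside -0.51 over all 179. By limma's adjusted p under 0.05, 9 of the 18 were called lower and 1 higher, beside 58 lower and 9 higher of all 179. At 14 weeks the 15 such miRNAs had -0.58 (2 called lower, 1 higher), beside 0.20 over all 171 (6 called lower, 20 higher). By arm, 32 of 87 3p arms and 25 of 91 5p arms were called lower at 9 weeks as deposited, and 5 of 83 and 1 of 87 at 14 weeks. After rescaling it was 9 of 87 3p arms and 9 of 90 5p arms at 9 weeks, and 10 of 81 and 11 of 86 at 14 weeks.

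With rescaling and a linear GC correction per library, the members stayed below 0. The difference of miR-423-5p became -1.39 ± 0.25 at 9 weeks and -1.89 ± 0.35 at 14 weeks, and that of miR-1964-3p -1.25 ± 0.28 and -1.32 ± 0.21. miR-674-3p had -1.09 ± 0.35 and -1.66 ± 0.32, and miR-872-3p -1.44 ± 0.37 and -0.39 ± 0.34. By its form the correction moves a miRNA more the further its GC content lies from the mean. It moved the GC-rich miR-1964-3p most at 14 weeks and left miR-872-3p nearly where rescaling had put it (-1.41 and -0.36). Nothing is read from this order, nor from the signs, since the members were chosen on these values.

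**Figure D5:**
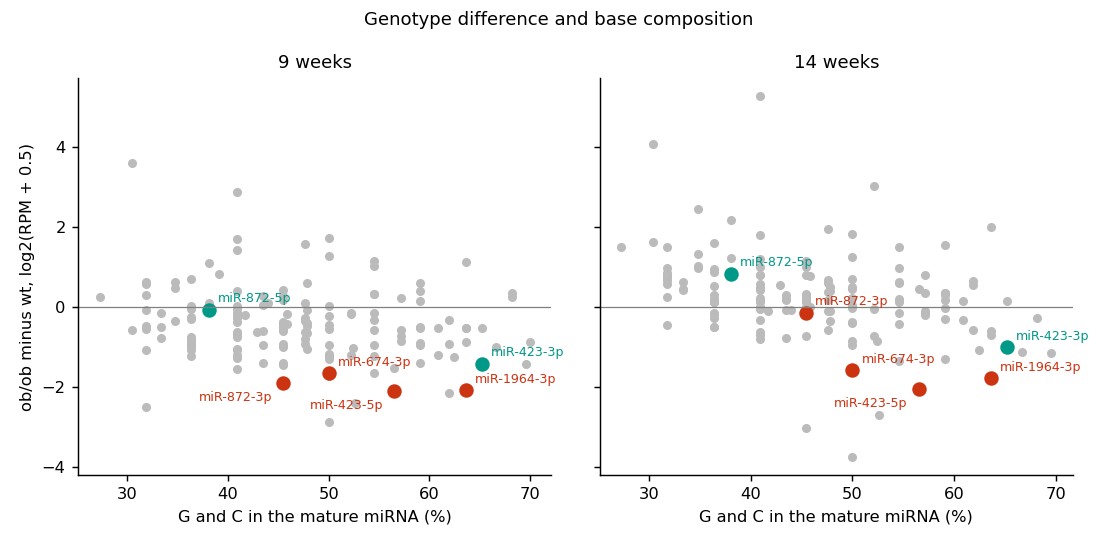
Difference in log2(RPM + 0.5), ob/ob minus wt, against the percentage of G and C in the mature miRNA at 9 weeks (left) and 14 weeks (right), for tested miRNAs with a RefSeq sequence (grey), the members (red) and partner arms (green). The members lie among the lowest points across 45.5% to 63.6% G and C, except miR-872-3p at 14 weeks.

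Several measures of the libraries differed between the genotypes without overlap, and their part in the members' differences was not tested. None passed the 0.05 threshold in the two-sided exact permutation tests (smallest adjusted p = 0.0735). With so few libraries such a test can give no p below 0.0286 before adjustment over 18 tests. Missing the threshold is therefore not read as a lack of difference. At 9 weeks the sum over all listed miRNAs was lower in ob/ob (230785 to 250422 RPM, beside 297668 to 358621 in wt). At 14 weeks this sum overlapped. The hepatocyte list, of which 5 of 5 miRNAs were listed and none was at 0, summed to 1156 to 2273 RPM in wt and 4035 to 5597 in ob/ob at 9 weeks, and to 1154 to 1738 and 3296 to 6949.9 at 14 weeks. Most of it was miR-192-5p, and 2 of its 4 tested members were called higher at each age. miR-122-5p of this list averaged 46.3 RPM (wt) and 166 RPM (ob/ob) at 9 weeks, but 46.7 and 54.9 RPM at 14 weeks. miR-122-3p averaged 0.461 RPM (wt) and 0.359 RPM (ob/ob) at 9 weeks, beside 0.421 and 0.631 RPM at 14 weeks. The remaining members of this list averaged higher in ob/ob at both ages. Of the erythroid list only miR-144-5p is among the listed miRNAs, at 0.331 to 1.49 RPM in wt and 11.6 to 32.4 in ob/ob. The sum of the macrophage list overlapped between genotypes, at 49936 to 65477 and 37372 to 55516 RPM at 9 weeks and 28876 to 48470.0 and 46075 to 57700.4 at 14 weeks. Most of it was miR-22-3p (group means of 39639 to 53457 RPM). miR-142a-5p had group means of 2415 to 3652 RPM, and miR-142a-3p was near 0 in all groups but ob/ob at 14 weeks (mean 13.5 RPM). Of the 4 tested members of that list, 1 was called lower at 9 weeks and 1 higher at 14 weeks. In wt and ob/ob, miR-511-3p had means of 159 and 77.9 RPM at 9 weeks and 150 and 130 at 14 weeks. miR-155-5p had 9.19 and 14.3, and 7.54 and 18.9. The endothelial, stellate and epithelial sums overlapped as well, and the lymphocyte sum did at 14 weeks and was lower in ob/ob at 9 weeks (4935 to 6729 beside 7421 to 7649 RPM).

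Depth differed between the genotypes at each age, and its part in the members' differences was not tested. Within groups, Pearson's r with log2 depth over the 15 libraries was -0.51 for miR-423-5p, -0.21 for miR-1964-3p, -0.22 for miR-674-3p and 0.50 for miR-872-3p.

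All libraries of 9 weeks were in sequencing lane 2, whereas at 14 weeks lane 1 held replicates 1 and 2 of each genotype and lane 2 held replicates 3 and 4. Within lane 1 the log2 difference at 14 weeks was -1.80 ± 0.86 for miR-423-5p, -1.44 ± 0.78 for miR-1964-3p and -1.65 ± 0.80 for miR-674-3p. Within lane 2 it was -2.31 ± 0.18, -2.12 ± 0.20 and -1.52 ± 0.20. For miR-872-3p it was 0.32 ± 0.80 in lane 1 and -0.60 ± 0.54 in lane 2. Each lane held 2 libraries against 2. The members were chosen on these same values, so nothing is read from the direction shared by the lanes.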

How the data were processed

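Small RNA from Kupffer cells of wt and ob/ob mice was extracted with a column kit, made into libraries with the TruSeq Small RNA kit and sequenced on an Illumina instrument, per the labels' protocols. The submitters' processing notes name bcl2fastq, cutadapt, GRCm38.p5 and mm10. The aligner, the counter, the miRNA annotation and the denominator of the values are each not given in the sources used here. Deposited values were taken as RPM made by the authors, an inference from the values: in each library 100% lay within 0.1 reads of a whole multiple of 1 step, read as the worth of 1 read. That step varied slightly between miRNAs, so no count model was used.

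log2(RPM + 0.5) was fitted with limma 3.58.1 (trend, robust, Benjamini-Hochberg, threshold 0.05) in R 4.3.3 for each age, over miRNAs with at least 1 RPM in at least the number of libraries of the smaller group. The difference between ages was an interaction over 15 libraries. Single library measures had two-sided exact permutation tests. The fit was tested on simulated data. Alternatives were the pseudocount, the filter, median-ratio rescaling (over miRNAs averaging 5 RPM or more, none at 0) without and with a GC correction, lanes, a replicate block and leaving out each library.

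The members and lists were chosen with earlier results of these data known. Named besides the members and their arms are the 3 most correlated miRNAs by each of 2 measures, the 5 next largest falls at each age and marker miRNAs whose list moved with genotype.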

Additional observations from a re-analysis of the deposited data

Results flagged for a closer look

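In 51 groups of 4 libraries, each the values of 1 member, partner arm, arm ratio, marker sum, library sum or depth, 6 had a library whose gap to the nearest other exceeded what is usual for 4 values; chance flags about 1 in 20. In wt at 9 weeks replicate 2 was high for miR-423-5p (969 RPM) and for the 5p to 3p ratio of miR-423 (1.78), and replicate 1 for depth (22.8 M reads). In wt at 14 weeks replicate 1 was low for miR-872-5p (29.0 RPM) and for the stellate sum (496 RPM). In ob/ob at 14 weeks replicate 1 was high for the 5p to 3p ratio of miR-423 (0.992).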

How the results depend on the processing

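Over 16 settings at 9 weeks all members stayed lower in ob/ob, with miR-423-5p between -2.43 and -1.39. Over 20 at 14 weeks miR-423-5p, miR-1964-3p and miR-674-3p stayed lower, and miR-872-3p ran from -0.60 to 0.32. The settings refit the values on which the members were chosen, so nothing is read from the shared direction. No called result changed sign. Rescaling without and with the GC correction gave, at 9 weeks, 38 and 39 calls in place of 67, -1.60 and -1.39 for miR-423-5p and -1.60 and -1.25 for miR-1964-3p; with the correction miR-423-3p was at -0.52 at 9 weeks and miR-1964-3p at -1.32 at 14 weeks. At 14 weeks, with 26 calls, rescaling gave 47, and -1.22 for miR-423-3p and 0.61 for miR-872-5p, both then called; all 15 libraries in 1 fit gave 48, and called both (-1.0 and 0.83). Lane 1 alone gave 1 call, lane 2 alone 51, with miR-423-3p called at -1.14. Leaving out a library gave 13 to 46 calls (15 without wt replicate 3, 13 without ob/ob replicate 3, 46 without wt replicate 1) and -1.17 to -0.81 for miR-423-3p. The difference of effects between ages, with 0 calls, had 4 without the filter and 0 to 3 with a library left out (3 without wt replicate 2, 1 without wt replicate 3 and 2 without ob/ob replicate 1, all of 14 weeks); rescaled without and with the GC correction it was -0.67 and -0.49 for miR-423-5p, -0.64 and -0.57 for miR-674-3p, 1.06 and 1.03 for miR-872-3p, and rescaled -0.38 for miR-1964-3p. Rescaled, the 9-week log2 ratio of the hepatocyte sum was 1.97 (1.45 as deposited) and that of all listed miRNAs 0.0415 (-0.47 as deposited). The cause of these shifts was not tested.

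The replicate block gave 32 calls at 9 weeks and 22 at 14 weeks; the numbers are only a shared label, since deviations of same-numbered libraries correlated at -0.24 to 0.28 and 4 of 7 ob/ob libraries correlated best with another number. Under the block miR-423-3p was at -1.41 at 9 weeks (limma adjusted p = 0.0268). The rescaled library sums, the counts of calls by lane and the left-out libraries for sums and arm ratios were chosen after seeing the data. The reads of miR-1964-5p, at most 7.0 in any library, were too few to compare.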
